A study of Mus musculus with 4 samples.

Results

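The cytosolic ribosomal proteins are the proteins that, together with ribosomal RNA, build the 2 subunits of the ribosome outside mitochondria. Their genes were taken by symbol: every non-control probe on the array that carries a RefSeq protein-coding transcript of a gene named Rpl or Rps with a digit, or of Rpsa, Rplp0, Rplp1, Rplp2 or Fau, without the Rps6k kinases and the pseudogenes. That gave 89 genes on 156 probes, out of 23462 named genes on 56605 probes. By symbol, 54 belong to the large subunit (60S) and 35 to the small subunit (40S). Of the 89 genes, 82 had at least 1 probe measured on all 4 arrays, beside 12702 named genes in all. The rule also takes a few symbols that are not subunits of the ribosome itself: Rps19bp1, which encodes a protein that binds RPS19, and Rps23rg1, Rpl37rt and Rpl32l, which are copies or relatives of ribosomal protein genes.

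The RNA came from whole livers of male mice, and each of 4 groups was hybridized to 1 Agilent array in a single colour. The control group were naturally aged mice without drug, and the diabetic group were aged mice with a model of type 2 diabetes. The metformin group were aged diabetic mice given metformin, a glucose-lowering biguanide, and the combination group were aged diabetic mice given metformin with astragalus polysaccharide, a carbohydrate fraction of Astragalus root. All groups thus share natural ageing, and the labels carry 60 d without saying what the time counts from. How diabetes was induced, the strain, the doses, and any pooling of mice are not stated in the labels. There are no replicates, so no difference below could be tested, and each one is a difference between single arrays.

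Ribosomal protein mRNAs are among the most abundant messages of the liver, because a hepatocyte makes large amounts of secreted and metabolic protein. The genes are transcribed in concert, and their mRNAs begin with a short run of pyrimidines, the 5′ terminal oligopyrimidine (TOP) tract, through which mTORC1 and the RNA-binding protein LARP1 control their translation. Liver mTORC1 responds to insulin and amino acids, and metformin is known to lower its activity. That control acts on translation, which RNA levels on an array do not measure.

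The starts of 8 genes are shown because the TOP tract is a known feature of the family, although not every annotated start carries one. RefSeq promoter windows (GRCm38.p6) held 81 start sites for 69 of the 89 genes. Each line below gives 10 bases before the annotated start and 20 bases from it, 5′ to 3′ on the gene's strand. Capitals mark the longest run of C and T that begins with C and has at least 5 bases, or the first of equally long ones. Other such runs are not marked.
Rps6, chr4:86857348-86857377, minus strand: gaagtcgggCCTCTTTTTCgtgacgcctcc
Rplp2, chr7:141447641-141447670, plus strand: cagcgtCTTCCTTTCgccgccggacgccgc
Fau, chr19:6057937-6057966, plus strand: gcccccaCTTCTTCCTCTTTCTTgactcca
Rps15a, chr7:118116128-118116157, minus strand: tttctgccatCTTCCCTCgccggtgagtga
Rps26, chr10:128626487-128626516, minus strand: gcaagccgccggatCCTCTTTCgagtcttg
Rpl22l1, chr3:28805498-28805527, plus strand: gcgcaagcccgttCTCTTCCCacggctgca
Rplp0, chr5:115559457-115559486, plus strand: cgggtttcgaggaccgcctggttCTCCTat
Rpl22, chr4:152325716-152325745, plus strand: cctgggaaaagcaatagctggccgatcgtt
Rpl22, chr4:152324426-152324455, plus strand: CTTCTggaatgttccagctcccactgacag
In Rps15a the tract begins at the annotated first base, in Rps6, Rplp2 and Fau it begins just before it, and in Rps26, Rpl22l1 and Rplp0 it lies after it. Of the 2 annotated starts of Rpl22, 1 has no such tract in this window. The other has a marked tract that begins 10 bases before the start and an unmarked one of equal length after it. An annotated start can differ from the base at which transcription begins in liver.

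A tract that begins at the annotated start was found in 15 of the 81 windows (18.5%), against 2.51% of 32851 RefSeq promoters. Within 15 bases of the start it was found in 58.0% of them, against 36.4% of all promoters. Short words were searched on both strands of the whole 300-base window. CCGGAAG, the core of ETS-family sites such as GABP, was present in 33.3% of the ribosomal protein windows and 8.86% of all. The core word of YY1 sites, AAGATGG, was found in 16.0% of these windows against 6.34% of all promoters. A GC-box word of SP1-type factors, CCCGCCC, was found in 45.7% of them against 25.6%. The TATA-box word TATAAA was in 8 of the 81 windows (9.88%), against 13.6% of all promoters. The windows had a median of 58.3% G and C, against 52.7% over all promoters, and the share of a GC-rich word moves with base composition. These are matches of letters, and no factor was measured.

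Levels are log2 processed signals from which the 75th percentile over non-control probes was subtracted on each array, so 0 is the signal of a probe brighter than 75% of probes. The 75th percentile signal was 1159 to 1649 over the arrays, 14476 to 15933 named genes were measured on each, and the arrays correlated at 0.943 to 0.961 over the measured genes. Spots that the scanner software marked as outliers made up 7.33% to 13.9% of ribosomal protein spots, 6.26% to 14.7% of other bright spots and 2.18% to 5.35% of all spots, and were left out. Within a ribosomal protein probe that had both kinds of spot, outlier spots differed from the others by a median of -0.04 to 0.07. No spot was saturated. Repeated spots of 1 probe give the technical error: 60 of the 156 probes have 10 spots and 96 have 1, and a difference between 2 arrays had a technical SD of 0.08 to 0.09 from single spots and a standard error of about 0.03 from 10 spots. These errors leave out differences between mice, RNA extractions and hybridizations.

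**Figure D1:**
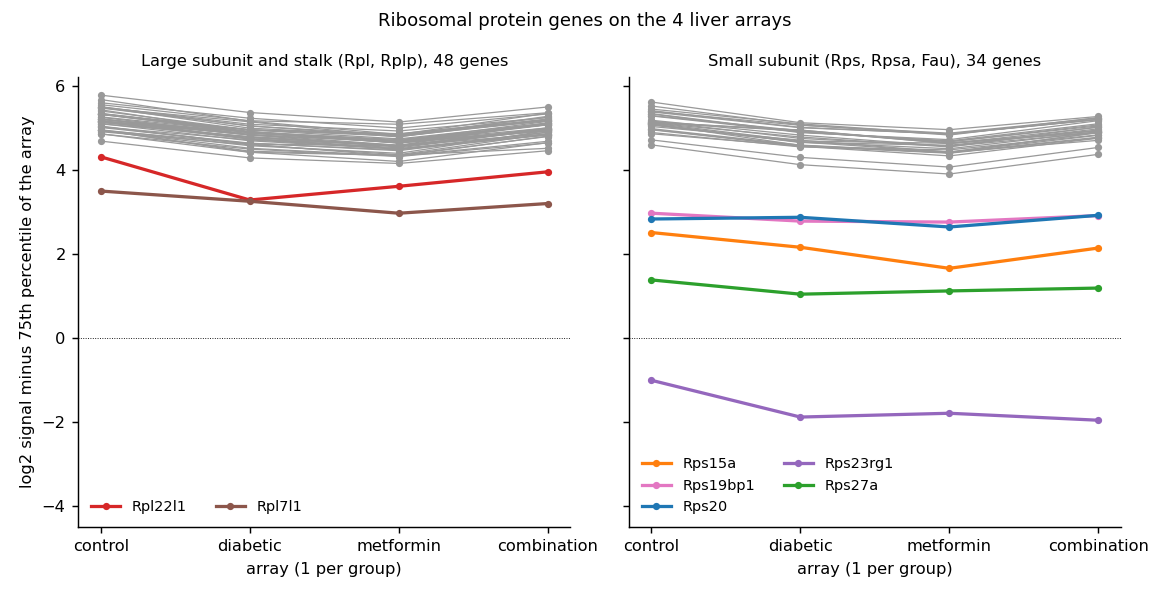
Level of each of the 82 measured ribosomal protein genes (log2 signal minus the array's 75th percentile, y axis) on the 4 arrays (x axis, 1 array per group), large subunit left and small subunit right; each line is a gene, and genes apart from the bundle are coloured. The bundle lies high and keeps its shape, highest on the control array and lowest on the metformin array on this scale; under quantile normalization, cyclic loess, the spike-in scale and the authors' values the step from the diabetic to the metformin array turns upward.

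On every array 81 of the 82 measured genes lay above the 75th percentile, with Rps23rg1 as the exception. Their median level was 5.14 in the control, 4.78 in the diabetic, 4.57 with metformin and 4.95 with the combination. On this scale 81 genes were highest on the control array and 79 lowest on the metformin array. The order control, combination, diabetic, metformin was seen in 74 of 82 genes (90.2%), in 13.1% of the other measured genes and in 68.9% of the 566 other genes among the brightest 5%. The other very bright liver genes thus mostly stood in the same order. In liver tissue, fewer cells of a type and less RNA per cell cannot be told apart, and neither was tested. The lower level also depends on the scaling. On the spike-in scale the family's median against control was -0.16 for the diabetic, 0.06 for the metformin and 0.04 for the combination array.

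The first pair of arrays sets diabetes against natural ageing alone. Ribosomal protein genes were slightly lower on the diabetic array, and they stayed below the median of all genes in each of the 11 alternative processings, by 0.05 to 0.29. Of these, each array's own percentile, median centring and the spike-in scale shift all genes of an array alike. They cannot change this distance and are no check of it. The family's median difference was -0.39, against -0.11 over all measured genes, so relative to all genes it was -0.28, or 1.21-fold lower. Other genes among the brightest 5% had a median of -0.33. Of the 82 genes, 81 lay below the all-gene median, and 0 were at least 1.5-fold higher, where 13.3% of all genes were, while 2 were at least 1.5-fold lower, where 14.7% of all genes were. Those were Rpl22l1 and Rps23rg1, and only Rpl22l1 reached 2-fold, against 5.46% of all genes that were at least 2-fold lower.

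The subunits, taken by symbol and so with the symbols outside the ribosome, had similar medians. These were -0.41 over 48 large-subunit genes and -0.39 over 34 small-subunit genes. Without paralogs and the symbols outside the ribosome, 75 genes were left, and their differences had an SD of 0.09. The technical SD of a difference from single spots was also 0.09, whereas all measured genes had an SD of 0.70 and the other brightest genes one of 0.18. The technical error is smaller for probes with 10 spots, about 0.03. In the other 3 main pairs the SD over the 75 genes was 0.08, beside a single-spot technical SD of 0.08 to 0.09.

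**Figure D2:**
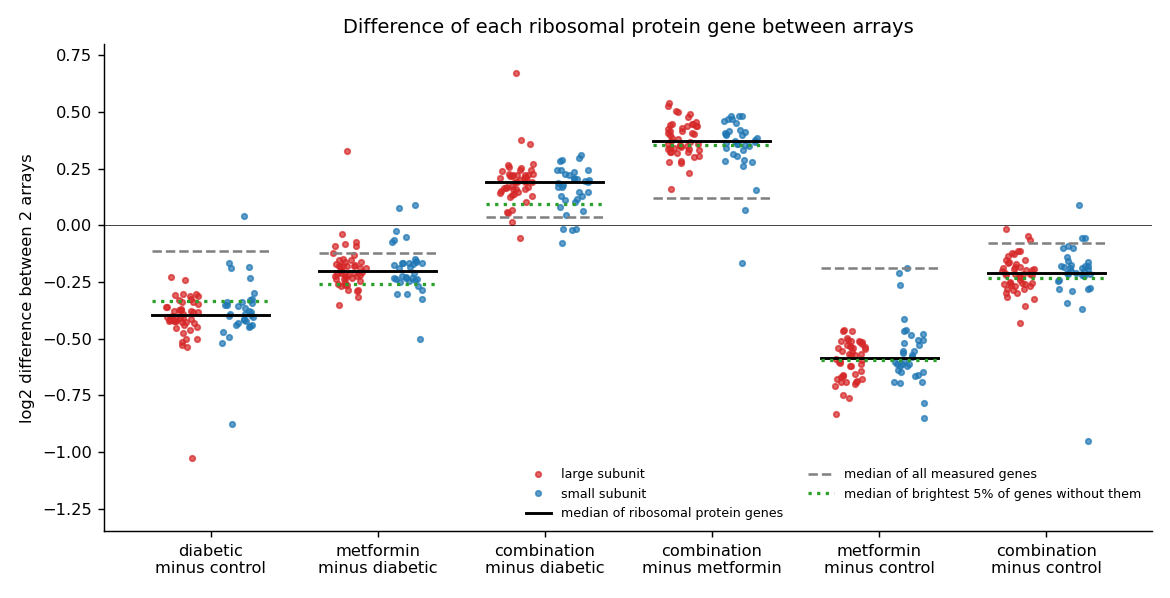
log2 difference of each ribosomal protein gene (y axis) in 6 pairs of arrays (x axis), large subunit in red and small subunit in blue, with the median of these genes (black), of all measured genes (grey, dashed) and of the other brightest 5% (green, dotted). In each pair the genes form a narrow cloud near the green line, and Rpl22l1 and Rps23rg1 are the points furthest below in the first pair.

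The second pair sets metformin treatment of diabetic mice against no treatment. The median of the ribosomal protein genes was 0.20 lower on the metformin array (-0.20), against -0.12 over all genes, so they lay 0.08 below all genes. This turned to between 0.01 and 0.06 above all genes under quantile normalization, cyclic loess and the authors' deposited values. With single arrays, the error of such a median between mice or hybridizations is not known. The other brightest genes stood at -0.26. None of the 82 genes was 1.5-fold higher or lower, where 14.3% and 11.7% of all genes were, and 69 lay below the all-gene median. Large and small subunit genes both had a median of -0.20.

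Adding astragalus polysaccharide to metformin was compared with both the diabetic and the metformin array. Against the diabetic array the ribosomal protein genes were higher by a median of 0.19, against 0.04 over all genes and 0.09 over the other brightest genes. With each array's own percentile the family's median became -0.05. The family's distance to all genes, 0.15, stayed above 0 in each alternative that can change it (0.07 to 0.25). Of the 82 genes, 76 lay above the all-gene median, 1 was at least 1.5-fold higher (Rpl22l1), where 11.3% of all genes were, and 0 were at least 1.5-fold lower, where 12.9% were. Against the metformin array the median was 0.37, or -0.03 on the spike-in scale, against 0.12 over all genes and 0.35 over the other brightest genes. The distance to all genes, 0.25 or 1.19-fold, ranged from 0.02 with the authors' values to 0.29. There, 80 genes lay above the all-gene median, and 0 were at least 1.5-fold higher or lower, where 11.8% and 14.8% of all genes were.

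Set against the control array, the metformin array had the widest gap. The median was -0.59, against -0.19 over all genes, and 41 of 82 genes were at least 1.5-fold lower and 0 higher, where 20.8% and 15.7% of all genes were. That count depended on the scaling, since the median lies near the 1.5-fold mark: it was 3 with each array's own percentile or median centring, 0 on the spike-in scale, 1 with quantile normalization, cyclic loess or the authors' values, 22 with normexp and 24 with outlier spots kept. The median itself turned to 0.06 on the spike-in scale and to 0.01 in the authors' values. On the main scale the other brightest genes stood at -0.59 too, and 296 of those 566 were at least 1.5-fold lower. On the combination array the median against control was -0.21, against -0.08 over all genes, and Rps23rg1 alone was at least 1.5-fold lower and 0 genes higher, where 14.7% and 11.6% of all genes were. Relative to all genes, the metformin gap was -0.40 and came to -0.01 at its smallest under the alternatives, and that of the combination array was -0.13 and changed sign in some, up to 0.06. These comparisons share arrays with those above and are not separate evidence.

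**Figure D3:**
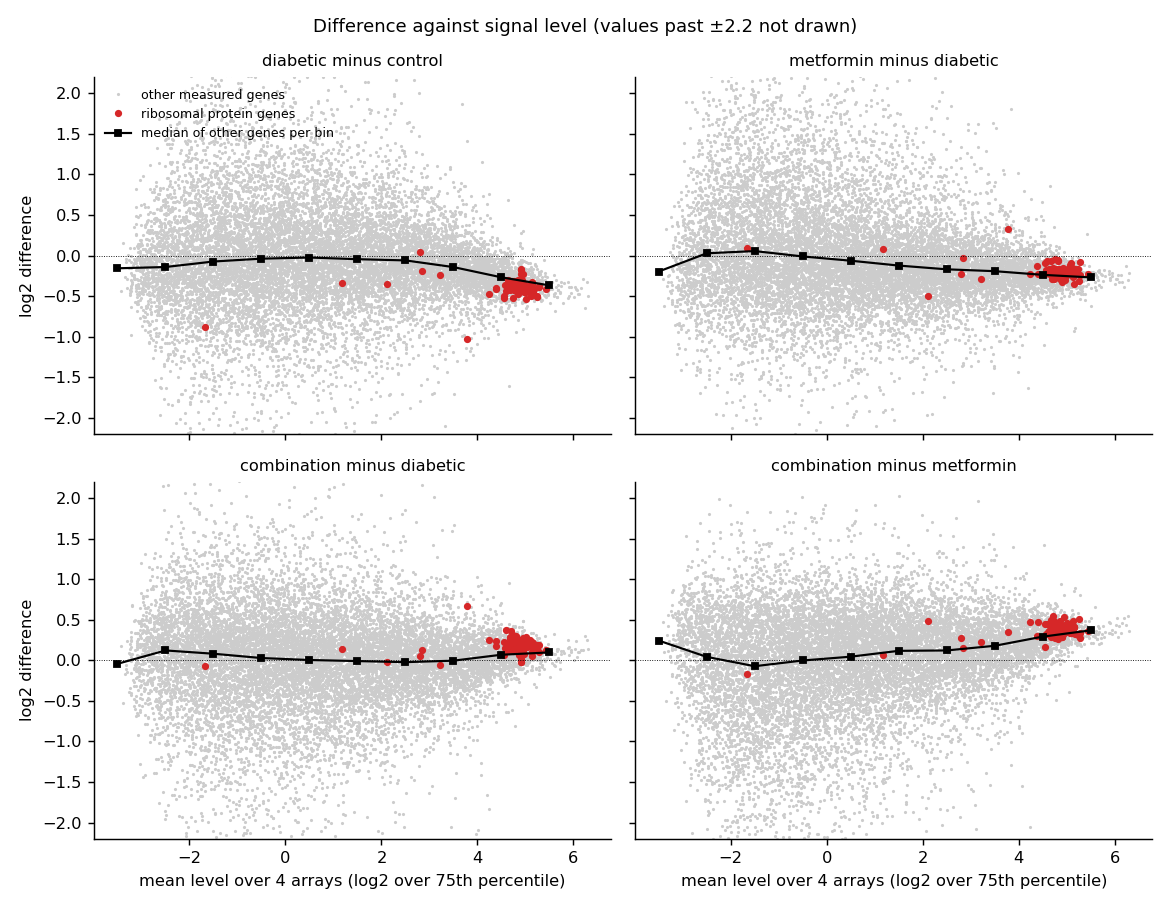
log2 difference (y axis) against mean level over the 4 arrays (x axis) in 4 pairs of arrays, other genes in grey, ribosomal protein genes in red, and the median of other genes per bin of 1 log2 unit as black squares (bins of at least 20 genes). The black line bends at the bright end, where the ribosomal protein genes lie, down in the 2 upper panels and up in combination minus metformin.

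The difference depended on brightness across all genes, and the ribosomal protein genes sit at the bright end. In the diabetic against control pair, other genes with a mean level of 0 to 1 had a median of -0.02, those from 4 to 5 one of -0.27 and those above 5 one of -0.37. The ribosomal protein genes in the last pair of bins stood at -0.39 (52 genes) and -0.41 (23 genes). For combination against metformin, other genes from 4 to 5 had a median of 0.29 and those above 5 one of 0.37, beside 0.38 and 0.37 for the ribosomal protein genes. In combination against diabetic the ribosomal protein genes lay somewhat above other genes of like brightness, at 0.19 against 0.07 from 4 to 5 and 0.19 against 0.10 above 5. Under quantile normalization, which makes the arrays' signal distributions alike, the distances of the family's median to all genes were -0.11, 0.05, 0.19 and 0.15 in the order of the comparisons above, beside -0.28, -0.08, 0.15 and 0.25 without it. In the authors' values they were -0.05, 0.06, 0.07 and 0.02.

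**Figure D4:**
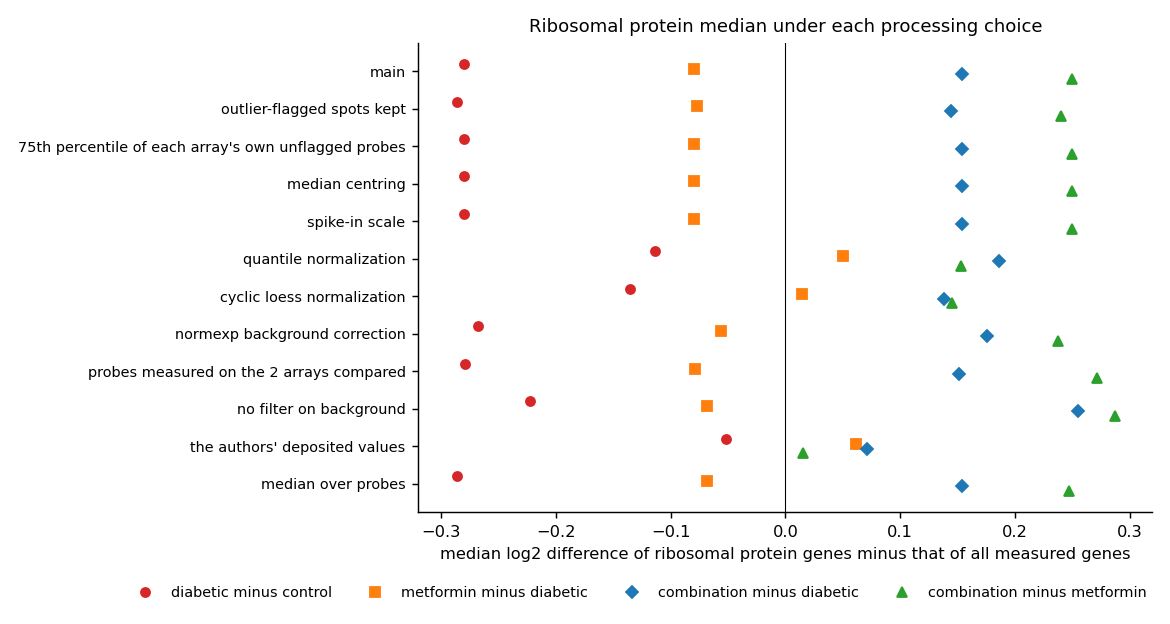
Median log2 difference of the ribosomal protein genes minus that of all measured genes (x axis) in 4 pairs of arrays under each processing choice (y axis). Metformin minus diabetic turns positive under quantile normalization, cyclic loess and the authors' deposited values, and the other medians keep their sign and lie nearest 0 with the authors' values. Each array's own percentile, median centring and the spike-in scale shift whole arrays and cannot move these points.

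Rpl22l1 stood apart from the family in the comparisons with the diabetic array. It is the paralog of Rpl22 that can take its place in the 60S subunit. Rpl22l1 had levels of 4.30, 3.28, 3.60 and 3.95 in the order control, diabetic, metformin, combination. It was thus highest in the control, lowest in the diabetic, and in between with either treatment. The difference was -1.03 between diabetic and control, 0.33 between metformin and diabetic and 0.67 between combination and diabetic. Taken against the family's median, it was lower by 0.63 to 0.77 in the diabetic against control pair under every processing tried. Likewise it was above that median by 0.45 to 0.53 for metformin and by 0.47 to 0.56 for the combination, both against diabetic. Processings that only shift whole arrays cannot change these distances. These departures exceed the technical SD of 0.09, yet rest on 1 probe with 1 spot and 1 array per group, and all use the same diabetic spot. In pairs without the diabetic array, Rpl22l1 minus the family's median was smaller on the main scale. It was -0.03 for combination against metformin, -0.11 for metformin against control and -0.15 for combination against control. With normexp these values were 0.04, -0.34 and -0.30. Rpl22 itself, on a probe with 10 spots, had 5.10, 4.69, 4.49 and 4.83 and so moved with the rest of the family, at -0.41, -0.20 and 0.14 in the same comparisons.

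Rps23rg1, which arose by retroposition of Rps23, stood apart as well, and further than Rpl22l1 when the combination array was set against metformin or control. Its levels, in the same order of arrays, were -1.01, -1.89, -1.80 and -1.96. The control array was the high one, and the other arrays lay close together. Both of its probes were lower in the diabetic, at -0.93 and -0.82. Against the family's median it lay lower by 0.21, with normexp background correction, to 0.80, so its distance depends on how background is handled at this low signal.

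The other paralogs did not separate from the family as far. Rpl36al, a paralog of Rpl36a, had 4.94, 4.44, 4.34 and 4.51, and its 2 probes gave -0.62 and -0.38 in the diabetic against control pair. On the combination array it stood at 0.07 against diabetic and 0.16 against metformin. Rpl7l1, which encodes an RPL7-related protein, had 3.49, 3.25, 2.96 and 3.19 and differed by -0.24, -0.28 and, on the combination against the diabetic array, -0.05. Rpl7 itself had 5.42, 4.89, 4.66 and 5.11 and the largest diabetic against control difference among subunit genes apart from paralogs, -0.54.

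Paralogs known from muscle and testis were dim and not above background on every array, and 1 canonical gene was not above it on any. The probe of Rpl3l, which replaces Rpl3 in striated muscle, was not well above background on any array. Rpl39l, a testis paralog of Rpl39, was above background only on the metformin array, at least 1.51-fold above the diabetic. Rpl10l, a testis paralog of Rpl10, was above background on the metformin and combination arrays. On the combination array it was at least 2.30-fold above the diabetic and at least 1.89-fold above the control, and its metformin level, -3.68, was under the lowest level counted as above background on those arrays. The bounds for Rpl39l and Rpl10l rest on 1 probe with 1 spot each, at low levels (-2.98 on metformin and -2.38 on the combination). Such a bound exists only where a probe passed on 1 array of a pair, so its direction was fixed in advance. The probe of Rpl37 was not well above background on any array, although Rpl37 encodes a core 60S protein, and Rpl37rt, a related symbol on another probe, was bright at 5.33, 4.91, 4.66 and 5.07.

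Another 3 genes had no value because their spots were marked as outliers. With outlier spots kept, which also raises the percentile subtracted and so lowers all levels, Rpl5 had levels of 4.26, 3.81, 3.44 and 4.05, beside 4.44, 4.04, 3.84 and 4.20 for Rpl11 on that scale. It was the only one of them past 1.5-fold in a main comparison, at 0.61 for combination against metformin. RPL5 and RPL11 form, with 5S RNA, the particle that binds the p53 regulator MDM2 when ribosome assembly is disturbed. On the main scale Rpl11 had 5.15, 4.73, 4.49 and 4.89 and moved with the family, at -0.42, -0.24 and 0.16. Rpl21 and Rps27l, with those spots kept, differed by -0.41 and -0.13 between diabetic and control.

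Members with a special role in the ribosome followed the rest in the diabetic against control pair. Rps6, the 40S protein phosphorylated by S6 kinase downstream of mTORC1, had 5.06, 4.66, 4.42 and 4.88 from 2 probes with 10 spots each. Its 2 probes gave -0.38 and -0.43 in the diabetic against control pair, and 0.20 and 0.24 in combination against diabetic. The stalk proteins, which recruit elongation factors to the 60S subunit, were lower in the diabetic as well: Rplp0 at -0.34, Rplp1 at -0.43 and Rplp2 at -0.33. On the metformin array against the diabetic they differed among themselves, with Rplp0 at -0.35, the second lowest of all members, and Rplp1 at -0.04. With outlier spots kept, Rplp1 stood at -0.08 there. Rplp0 had 5.47, 5.14, 4.78 and 5.19, and Rplp1 had 5.03, 4.61, 4.57 and 4.85. Fau, which encodes RPS30 fused to a ubiquitin-like protein, had 5.44, 5.09, 4.84 and 5.19.

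In Rps20, Rps15a and Rps27a a dim probe differed from the brighter probes of the same gene. Rps20, a 40S protein, had the only positive difference between diabetic and control, 0.04, from probes at 0.79, -0.28 and -0.39. The first of these is the dim one, with a level of -1.28 on the control array beside 4.71 and 5.04 for the others. Rps15a had the lowest metformin against diabetic value, -0.50, from probes at -1.59, 0.08 and 0.01, of which the first had a control level of -1.71. Its brighter probes lay above the family's median there, and with the median over its probes Rps15a stood 0.20 above that median instead of 0.30 below it (-0.30). Rps27a, which encodes ubiquitin fused to a 40S protein, was among the highest in that comparison at 0.08, from a bright probe at -0.18 and a dim one at 0.34. Which transcript or sequence the dim probes read was not tested.

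**Figure D5:**
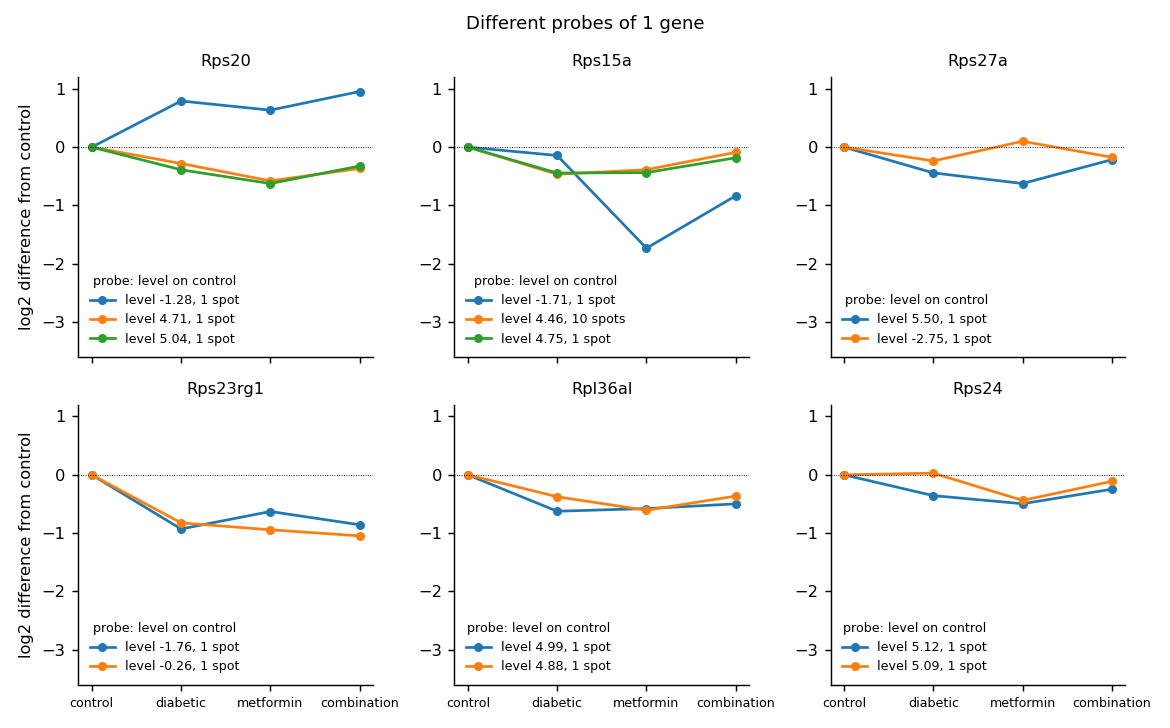
log2 difference from the control array (y axis) of each measured probe of 6 genes on the 4 arrays (x axis); each line is a probe, with its control level and number of spots in the key. In Rps20, Rps15a and Rps27a the dim probe parts from the bright ones, and in Rps23rg1 both probes lie lower on the other arrays than on control.

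Rps24 and Rps26 had small diabetic against control differences that did not come from a dim probe. Rps26, on 1 probe with 1 spot, had 5.12, 4.94, 4.62 and 4.92. Its difference of -0.18 was 0.21 to 0.25 above the family's median under every processing that can change this distance. It then stood at -0.32 for metformin and -0.02 for the combination against diabetic, both below the family. Rps24 had 5.10, 4.94, 4.64 and 4.92 from 2 bright probes that disagreed on the diabetic array, at 0.03 and -0.36. Each has 1 spot, and the probes are annotated to different transcripts of Rps24. Rps19bp1 had 2.96, 2.77, 2.75 and 2.91 and differences of -0.19, -0.02 and 0.13.

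At the other end, Rpl3, which lies near the peptidyl transferase centre, had 4.94, 4.41, 4.19 and 4.64 and Rps2, a 40S protein at the mRNA entry, had 5.09, 4.58, 4.40 and 4.89. Both were among the lowest in the diabetic, at -0.53 and -0.52. On the combination array against the diabetic, Rpl27a (0.36), Rpl17 (0.38), Rps2 (0.31) and Rps29 (0.30) were highest after Rpl22l1. Against the metformin array the highest were Rpl27a (0.54), Rpl13a (0.53), Rpl10 (0.51), Rpl30 (0.50) and Rpl8 (0.49). Rpl27a had 4.95, 4.57, 4.39 and 4.93, from 2 probes with 10 spots each that gave 0.24 and 0.48 against diabetic. The lowest values against metformin were Rps23rg1 at -0.17 and Rps27a at 0.07, with Rps19bp1, Rpl36al and Rpl7l1 between 0.15 and 0.23. Over the 75 genes, the diabetic against control and the combination against metformin differences, which share no array, correlated at -0.39 (all measured genes, -0.04). The metformin against control and combination against diabetic differences correlated at -0.07. These are descriptions across genes, which are not replicates. Diabetic against control and combination against metformin differences also moved with brightness at the bright end, in opposite directions. The part of brightness in the correlation was not tested. The 75 genes include Rps20, Rps15a and Rps27a with their dim probes.

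Other parts of the translation machinery were given from lists. Of 24 elongation factor and other TOP mRNA genes, 22 were measured, and their medians of -0.33, -0.24, 0.20 and 0.40 in the order of the 4 comparisons were near those of the ribosomal protein genes (-0.39, -0.20, 0.19 and 0.37). The other genes among the brightest 5% had -0.33, -0.26, 0.09 and 0.35, furthest from the ribosomal protein genes in combination against diabetic. At levels from 4 to 5 the distance was not confined to that pair. Other genes there stood at -0.27, beside -0.39 for the ribosomal protein genes, in diabetic against control. In combination against metformin they stood at 0.29, beside 0.38. The elongation factor gene Eef1a1 stood at -0.41, -0.25, 0.21 and 0.46. Eif4b, an initiation helicase cofactor, had the lowest diabetic value, -0.71. It was the only 1.5-fold difference there, where 14.7% of all genes were at least 1.5-fold lower and 13.3% higher. Nap1l1, a histone chaperone, was highest at 0.32. Of the list, 19 of 22 lay below the all-gene median in the diabetic and 19 of 22 above it for combination against diabetic.

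Of 50 ribosome assembly genes, 45 were measured, and they varied more than the ribosomal proteins. In the diabetic against control pair, 10 were 1.5-fold or more below control and 1 above (14.7% and 13.3% of all genes). Wdr43, a processome component, was lowest at -1.03, Bysl, needed for 40S maturation, stood at -0.95, and Rrp36 was highest at 0.77. On the combination array Gnl3, the nucleolar GTPase nucleostemin, was 0.96 above the diabetic and 1.32 above the metformin level, and Ppan was 1.11 above metformin, while Brix1 lay 1.04 below the diabetic (-1.04). Of 78 mitochondrial ribosomal protein genes, which serve a separate ribosome, 72 were measured. Their medians were -0.15, -0.25, 0.00 and 0.23, nearer to all genes than the cytosolic family in the diabetic and in both combination comparisons, and in none of the 72 did diabetic and control differ by 1.5-fold.

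Among 22 RNA polymerase I and III genes, of which 19 were measured, the median in the diabetic was -0.04, and 3 were at least 1.5-fold higher and 0 lower, where 13.3% and 14.7% of all genes were. In the metformin array Polr3g, a polymerase III subunit gene, and Ttf1, a termination factor of ribosomal RNA genes, stood at -1.43 and -1.31 against diabetic. Of 25 initiation factor genes 22 were measured, with a median of -0.22 in the diabetic. Of 27 genes of mTOR signalling and translation control 21 were measured, and they had a median of -0.19 with a wide range. Myc, a transcription factor that drives ribosomal genes, was at 0.39 in the control, -1.08 in the diabetic, -0.29 with metformin and 0.39 with the combination. Mdm2 was at 0.50, 2.29, 2.54 and 1.82 in the same order. Deptor, an mTOR inhibitor, was lowest on the metformin array, -0.99 against diabetic, and Eef2k, the kinase of elongation factor 2, lay at -1.78 in combination against diabetic.

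The arrays also differed in markers of other cells. Hepatocyte markers, of which 11 of 13 were measured on all arrays, were bright with medians of 5.30, 5.17, 4.73 and 5.21 over those 11 genes in the order control, diabetic, metformin and combination, so markers of the labelled tissue were present. Their median differences were -0.40, -0.38, 0.03 and 0.42 in the 4 comparisons. Lymphocyte markers, 10 of 13 measured, went otherwise, at -1.23, 1.77, 0.67 and -1.65, and so did the 5 of 8 measured cell cycle genes (-2.24, 2.97, 0.32 and -2.78). Matrix genes had -0.89, 1.79, 0.57 and -0.99, Kupffer and macrophage genes -0.74, 0.51, -0.32 and -0.66, endothelial genes -0.82, 0.49, 0.59 and 0.12, and erythroid genes -1.34, 0.46, 0.39 and 0.05. Of 13 exocrine pancreas genes, 12 were above background on the control, diabetic and metformin arrays and 5 on the combination array, and the 4 measured on all arrays had median levels of 4.68, 1.72, 2.71 and -1.79. On the main scale the ribosomal protein median had the sign of the lymphocyte median in the diabetic and in combination against diabetic. In the other 2 comparisons the signs were opposite. Outside the diabetic against control pair, the sign of the ribosomal protein median changed under some scalings. For metformin against diabetic it turned to 0.21 on the spike-in scale. The part of these cells in the ribosomal protein differences was not tested.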

How the data were processed

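Spot intensities are those deposited in the scanner files, per the file headers from Feature Extraction 11.5.1.1 on a grid for mm9. Version 10.7 of the same software stands in the submitters' processing notes. Processed signals, already background-corrected there, were used. The authors' deposited value table holds log2 values normalized in GeneSpring, per the labels' protocols, by a method not given in the sources used here; its columns share their quartiles. All 4 files carry 1 scan time and 4 different barcodes, so barcode and group cannot be told apart.

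Log2 processed signals were averaged over a probe's spots, without those marked as non-uniform or population outliers, and the 75th percentile over probes with unmarked spots on all 4 arrays was subtracted. A probe counted as measured where 50% or more of the spots left were well above background on each of the 4 arrays, and a gene is the mean over its measured probes. The files give accessions, and 33767 probes (59.7%) were named through RefSeq (GRCm38.p6). With 1 array per group no test was possible, so genes 1.5-fold and 2-fold apart were counted beside all measured genes. For probes above background on 1 of 2 arrays, a bound was taken against the dim probe's own level or the lowest level above background there, whichever is higher.

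The members, the gene lists and the comparisons were chosen with earlier results of these data known. Named genes are the 5 highest and 5 lowest members in each of the 4 comparisons, members 2-fold apart, paralogs, stalk proteins, fusions, Rps6, Rpl5 and Rpl11, and, in other lists, the 2 highest, the 2 lowest and up to 8 genes 2-fold apart; not all of these are printed, and Rpl22, Eef1a1 and Rpl37rt were added after their values were seen. Alternatives were 10 planned ones and 1 added after seeing the data, the median over a gene's probes. Quantile, cyclic loess and normexp (offset 50) used limma 3.58.1 in R 4.3.3; normexp was run on the median spot signal and the median background, in place of the planned mean signal. The scaling and counting were tested on simulated data in which each array was shifted by 1 constant. Those data had no dependence on brightness, so the test could not show how the scaling behaves under it.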

Additional observations from a re-analysis of the deposited data

How the results depend on the processing

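No paired analysis was possible because each group has 1 array, and for the same reason no replicate could be left out. Scaling by 1 constant per array moves the median of all genes, so the ribosomal protein median moved with it: with each array's own percentile to -0.27 (diabetic against control), -0.048 (combination against diabetic, sign changed) and 0.079 (combination against metformin); with median centring to -0.28 (diabetic against control), -0.080 (metformin against diabetic) and 0.25 (combination against metformin); and with the spike-in scale to -0.16 (diabetic against control), 0.21 (metformin against diabetic, sign changed) and -0.030 (combination against metformin, sign changed). Quantile normalization gave -0.063, 0.033 (sign changed), 0.054 and 0.0071 in the order of the 4 comparisons. Cyclic loess gave -0.13, 0.026 (sign changed) and, for combination against metformin, 0.084, and the authors' deposited values -0.053, 0.041 (sign changed), 0.059 and 0.00068.

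Counts of genes at least 1.5-fold apart stayed small. They went from 2 to 1 with normexp and to 3 without the background filter in diabetic against control, from 0 to 1 with the spike-in scale and to 2 without the filter in metformin against diabetic, from 1 to 0 with each array's own percentile or quantile normalization and to 4 without the filter in combination against diabetic, and from 0 to 1 with outlier spots kept or with probes measured on the 2 arrays compared, and to 3 without the filter, in combination against metformin. Taking the median over probes changed none of the 8 summaries by more than its spread. The cause of these changes was not tested beyond what the scalings do by construction. The number of arrays limits the precision, and 40 of the 82 genes rest on 1 probe.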
